A study of Mus musculus with 19 samples.

Results

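The 31 genes described here make, sense, move, export and esterify cholesterol, and they were chosen by symbol from the 55335 entries of a table of mouse liver expression. They comprise 7 enzymes of the mevalonate pathway (Acat2, Hmgcs1, Mvk, Pmvk, Mvd, Idi1 and Fdps) and 11 enzymes from squalene to cholesterol (Fdft1, Sqle, Lss, Cyp51, Tm7sf2, Msmo1, Nsdhl, Hsd17b7, Ebp, Sc5d and Dhcr7), 18 synthesis genes in all. The other 13 are 4 genes of sterol sensing (Srebf2, Scap, Insig1 and Insig2), 3 of intracellular sterol transport (Stard4, Npc1 and Npc2), 3 of efflux (Abcg5, Abcg8 and Abca1) and 3 of esterification (Soat1, Soat2 and Lcat).

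Livers of wild-type mice fed normal chow (NC) were compared with livers of wild-type mice on CDAHFD, a high-fat diet without choline and with defined L-amino acids that is used to produce steatohepatitis. On each diet, mice received remote limb ischemic conditioning (RIC), that is, cycles of arrested and resumed limb blood flow, or a sham treatment. There were 19 samples, 5 each of NC sham, NC RIC and CDAHFD sham and 4 of CDAHFD RIC. Strain, age, sex, the length of feeding and the schedule of conditioning are not given in the sources used here, and the labels do not say that each replicate was a separate animal, so p-values measure only the spread between these samples.

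Cholesterol is built in the cytosol and endoplasmic reticulum from acetyl-CoA, through mevalonate, isoprenoid diphosphates, squalene and lanosterol. When membrane sterol is low, Scap carries the precursor of the transcription factor SREBP-2, encoded by Srebf2, out of the endoplasmic reticulum for cleavage, and the released factor raises transcription of the synthesis genes and of Insig1; when sterol is high, the Insig proteins hold Scap back. Hepatocytes dispose of sterol as bile acids, as biliary cholesterol through the Abcg5 and Abcg8 transporter, as lipoprotein lipid and as stored esters.

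Expression was deposited as FPKM, fragments scaled to gene length and to the mapped fragments of the library. Depth, estimated from low values, was 16.0 to 26.5 M reads, and at the mean depth a single read equals 0.0253 FPKM for a 2 kb gene. The liver label held: all 10 hepatocyte markers passed the filter, and their summed FPKM had group medians of 39487 to 64545. The test took the 10577 genes whose FPKM averaged 1 or more over the samples, which took in all 31 sterol genes. Soat1 passed through its level on CDAHFD, since its mean was 0.314 FPKM in NC sham and 3.16 in CDAHFD sham. Conversely, Sqle, Lss, Idi1 and Mvk averaged under 1 FPKM in CDAHFD sham (0.739, 0.773, 0.716 and 0.940). In NC sham their means were 4.43, 1.36, 20.9 and 1.28. Samples 2 and 5 of CDAHFD sham had stood apart from the other 3 in an earlier analysis of these data, so each comparison was also fitted without them. Differences are on the log2(FPKM + 1) scale with standard error (SE) and limma's adjusted p, with a threshold of 0.05. In bulk tissue, fewer cells of a type and less RNA per cell cannot be told apart.

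Promoter windows of 5 genes are printed for reference, and no expression result rests on them. They are those of 3 synthesis genes whose FPKM fell on CDAHFD (Hmgcs1, Idi1 and Cyp51) and 1 that did not pass there (Sc5d). The last is that of Abcg5, whose start lies beside that of Abcg8 and whose FPKM was higher with RIC on CDAHFD. Each window runs from 250 bases before to 50 after a start in RefSeq (build GRCm38.p6), 5′ to 3′ on the gene's strand: Hmgcs1 at chr13:119690101-119690400 (plus), Idi1 at chr13:8885356-8885655 (plus), Cyp51 at chr5:4104648-4104947 (minus), Sc5d at chr9:42264251-42264550 (minus) and Abcg5 at chr17:84682962-84683261 (minus). Capitals mark every match, on either strand, to the core of the sterol regulatory element bound by SREBP (TCACNCCAC), to the box bound by NF-Y (CCAAT) and to the GC box bound by SP1 (GGGCGG).
Hmgcs1: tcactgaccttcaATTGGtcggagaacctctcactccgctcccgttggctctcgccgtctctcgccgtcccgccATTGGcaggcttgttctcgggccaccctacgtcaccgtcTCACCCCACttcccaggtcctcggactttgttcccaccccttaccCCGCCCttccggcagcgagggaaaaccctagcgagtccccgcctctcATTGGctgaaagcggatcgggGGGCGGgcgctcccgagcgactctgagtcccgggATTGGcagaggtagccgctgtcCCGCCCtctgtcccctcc
Idi1: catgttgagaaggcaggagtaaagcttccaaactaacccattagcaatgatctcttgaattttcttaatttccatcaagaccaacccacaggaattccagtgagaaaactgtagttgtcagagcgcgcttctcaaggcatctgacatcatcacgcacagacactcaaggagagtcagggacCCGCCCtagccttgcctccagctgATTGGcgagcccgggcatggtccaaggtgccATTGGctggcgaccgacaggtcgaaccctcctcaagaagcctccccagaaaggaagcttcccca
Cyp51: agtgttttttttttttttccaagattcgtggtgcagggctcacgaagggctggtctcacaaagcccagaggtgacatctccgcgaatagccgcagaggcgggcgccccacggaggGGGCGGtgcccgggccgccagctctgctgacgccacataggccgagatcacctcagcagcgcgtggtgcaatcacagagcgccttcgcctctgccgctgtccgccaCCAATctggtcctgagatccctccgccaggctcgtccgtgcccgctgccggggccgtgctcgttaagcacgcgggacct
Sc5d: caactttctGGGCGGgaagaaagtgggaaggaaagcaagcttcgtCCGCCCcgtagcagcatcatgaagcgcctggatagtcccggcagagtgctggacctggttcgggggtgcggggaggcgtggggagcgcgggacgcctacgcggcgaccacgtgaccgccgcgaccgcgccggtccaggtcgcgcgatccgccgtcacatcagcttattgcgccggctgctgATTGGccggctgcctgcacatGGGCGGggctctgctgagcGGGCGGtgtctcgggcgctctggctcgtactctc
Abcg5: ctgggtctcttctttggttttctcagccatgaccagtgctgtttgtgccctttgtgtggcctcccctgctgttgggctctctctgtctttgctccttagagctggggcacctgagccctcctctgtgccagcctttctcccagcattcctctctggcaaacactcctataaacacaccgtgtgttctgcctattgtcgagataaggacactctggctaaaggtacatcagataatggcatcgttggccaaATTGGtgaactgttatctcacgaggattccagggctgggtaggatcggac

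Of the 31 genes 25 were matched in the table of RefSeq windows used here, with 32 windows between them; Fdps, Fdft1, Sqle, Stard4, Npc1 and Soat2 were not matched. The sterol element core stood in 1 of these windows (3.12%), that of Hmgcs1, where the site TCACCCCAC begins 137 bases before the start, and in 1.24% of all 32851 RefSeq windows of this length. CCAAT was present in 14 of 18 windows of synthesis genes (77.8%), in 8 of 14 windows of the other sterol genes (57.1%) and in 37.4% of all windows. GGGCGG was present in 15 of 18 (83.3%), in 9 of 14 (64.3%) and in 35.7%. These matches describe letters in a window and are not evidence of binding. Abcg5 (chr17:84658234-84683011, minus strand) and Abcg8 (chr17:84676302-84700333, plus strand) are read away from each other, with their nearest RefSeq starts 110 bases apart, so the printed Abcg5 window covers both starts. Their annotated spans overlap. Of the 31 genes 13 overlap an annotated gene on the opposite strand (GENCODE, mm10), among them Cyp51 with Akap9 and Fdft1 with Ctsb, and whether the libraries keep strand is not given in the sources used here.

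The diet was first compared between the sham groups. Cholesterol synthesis genes were lower on CDAHFD: of 18, none rose, 12 fell and 6 did not pass, with a median difference of -0.98 beside 0.45 over all genes tested. All 18 lay below that all-gene median. All 4 sensing genes fell. Of the 9 transport, efflux and esterification genes 5 rose (Npc1, Npc2, Abca1, Soat1 and Soat2), against 63.9% of all genes tested called higher, and 2 fell (Stard4 and Abcg8). These 9 genes had a median difference of 0.47, near the 0.45 over all genes tested, and 4 of them lay below that all-gene median. Over the 31 genes this made 5 that rose, against 63.9% of all genes tested called higher, and 18 that fell, against 10.3% called lower. The values of 21 of the 31 did not overlap between the groups, against 59.3% of all genes tested. The counts include Soat1, which entered the test through its level on CDAHFD. They also include the falls of Sqle, Lss and Idi1, whose entry leaned on their levels on NC. Those falls kept their calls in each alternative run, no filter included (limma's adjusted p at most 0.0122, for Lss).

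Scaling changed the balance of these counts. Most tested genes were called higher on CDAHFD as deposited (6762 higher and 1090 lower); with median-ratio scaling 3227 were higher and 3222 lower, and with quantile normalization 3116 and 3428. The all-gene median moved from 0.45 to 0.00 and -0.04. Under both scalings 2 sterol genes were higher (Npc2 and Soat1) and 25 were lower, the 18 above together with Acat2, Mvk, Mvd, Fdft1, Sc5d, Dhcr7 and Lcat.

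In the mevalonate pathway the largest fall was that of Idi1 (chr13:8885501-8892451), the isomerase that makes dimethylallyl diphosphate from isopentenyl diphosphate. Idi1 measured 17.3, 23.1, 41.8, 8.27 and 14.1 FPKM in NC sham and 0.379, 0.819, 0.0153, 1.30 and 1.06 in CDAHFD sham. The RIC samples read 52.4, 10.01, 10.6, 13.8 and 17.2 on NC, and 2.52, 0.818, 1.14 and 1.39 on CDAHFD. Every NC sample was above every CDAHFD sample, and the lowest value, in CDAHFD sham 3, corresponds to about 1 estimated read. The sham means were 20.9 ± 12.9 and 0.716 ± 0.519 FPKM (SD, n = 5 each), 29.2-fold lower on CDAHFD, with a log2 difference of -3.55 (SE 0.40, adjusted p = 2.3e-07). Since the entry of Idi1 into the test leaned on NC, that p is not independent of the filter. The call held in all 30 alternatives, no filter included (limma's adjusted p at most 3.9e-06).

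Fdps, which condenses these units to farnesyl diphosphate, was also lower in each CDAHFD sample. Its FPKM was 9.69, 8.95, 15.9, 6.96 and 6.48 in NC sham samples and 9.83, 7.69, 3.73, 7.36 and 5.69 in NC RIC samples. Under CDAHFD, sham samples read 2.32, 1.42, 2.43, 2.86 and 2.64 and RIC samples 2.41, 1.66, 1.16 and 1.72. No CDAHFD sample reached the lowest NC sample, and the sham difference was -1.62 (SE 0.22, adjusted p = 2.3e-06, 4.11-fold lower). Hmgcs1, which commits acetoacetyl-CoA to HMG-CoA, fell from 33.7 ± 10.8 to 13.3 ± 1.26 FPKM (-1.22, adjusted p = 7.4e-06). Pmvk, the second kinase acting on mevalonate, fell from 6.02 ± 1.66 to 2.70 ± 0.419 (-0.90). The genes next to them in the pathway did not pass: the acetoacetyl-CoA thiolase gene Acat2 differed by 0.01 (95% interval -0.32 to 0.35), the mevalonate kinase gene Mvk by -0.23 (-0.52 to 0.06) and the decarboxylase gene Mvd by -0.40 (-0.78 to -0.02, adjusted p = 0.0538). Mvk and Mvd were near the pseudocount, at 32 to 112 and 30 to 105 estimated reads per sample.

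Between squalene and cholesterol, the largest falls were in the enzymes that process lanosterol. Cyp51 (chr5:4081145-4104746), the lanosterol demethylase, measured 27.1, 29.5, 42.4, 23.2 and 18.99 FPKM in NC sham samples and 36.3, 20.2, 13.7, 21.2 and 19.1 in NC RIC samples. The CDAHFD values were 2.92, 3.01, 4.03, 3.64 and 2.96 with sham and 3.96, 2.07, 2.09 and 2.60 with RIC. Each CDAHFD sample stood at or under 4.03 FPKM and each NC sample at or over 13.7. The sham difference was -2.72 (SE 0.21, adjusted p = 1.8e-09, 8.53-fold lower). Tm7sf2 (chr19:6062821-6068373), the sterol reductase that acts on the product of Cyp51, had the smallest p among the synthesis genes. Its FPKM was 10.5, 11.5, 17.7, 11.5 and 9.59 in NC sham samples and 10.9, 7.90, 8.997, 9.99 and 9.28 in NC RIC samples. Sham samples on CDAHFD held 1.28, 0.849, 1.40, 1.32 and 1.60, and RIC samples held 1.46, 0.550, 0.715 and 0.910. Here too the diets did not overlap, and the sham difference was -2.50 (SE 0.15, adjusted p = 2.7e-11, 9.42-fold lower).

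Msmo1, the methylsterol oxidase of the following step, fell 11.5-fold, from 23.4 ± 13.0 to 2.03 ± 0.38 FPKM (-2.87, adjusted p = 2.6e-08). Sqle, which oxidises squalene, fell 5.998-fold, from 4.43 ± 1.85 to 0.739 ± 0.249 (-1.58). Smaller falls were those of Nsdhl (-1.10) and Hsd17b7 (-1.05), which remove the methyl groups with Msmo1, of the lanosterol synthase gene Lss (-0.41, adjusted p = 0.0031) and of the sterol isomerase gene Ebp (-0.40, adjusted p = 0.0041). Without CDAHFD sham 2 and 5 the Ebp difference was -0.27 (adjusted p = 0.0521). The entry of Lss and Sqle into the test leaned on NC, and both calls held in all 29 alternatives, no filter included. The squalene synthase gene Fdft1 (-0.44, 95% interval -0.95 to 0.07), the desaturase gene Sc5d (-0.14, -0.32 to 0.05) and the terminal reductase gene Dhcr7 (-0.23, -0.53 to 0.06) did not pass. Sc5d had the highest mean FPKM of the synthesis genes in all 4 groups, at 37.6 ± 2.93 and 37.3 ± 4.66 on NC (sham and RIC) and 34.0 ± 1.72 and 36.7 ± 3.71 on CDAHFD. In NC sham it lay within 1 SD of Ebp (35.5 ± 5.18).

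**Figure D1:**
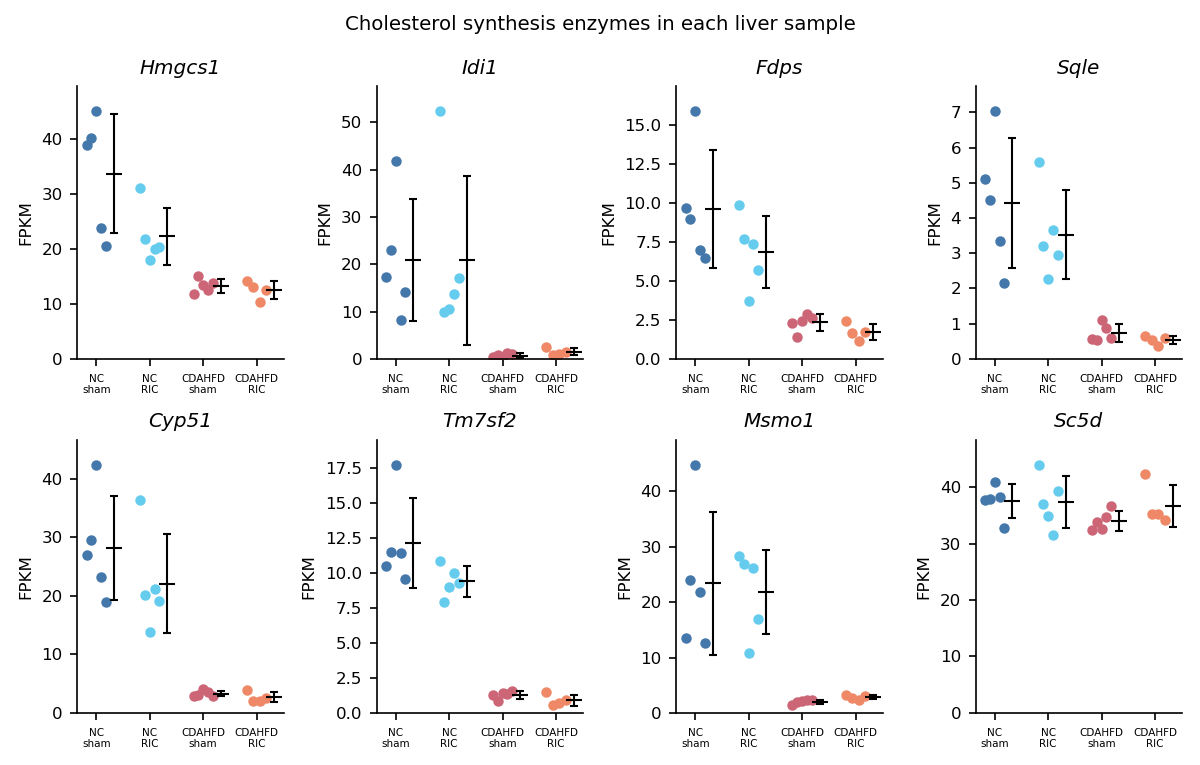
FPKM (linear axis from 0) of 8 synthesis genes in each of the 19 samples, in the 4 groups; points are samples, and the bar beside them is the mean ± SD. Cyp51 and Tm7sf2 lie at or under 4.03 and 1.60 FPKM on CDAHFD and at or over 13.7 and 7.90 on NC, whereas Sc5d overlaps between the diets.

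In 3 groups a single sample was highest for most synthesis genes. NC sham 3 was the highest of its group for 16 of the 18 synthesis genes, NC sham 5 the lowest for 13, and NC RIC 1 and CDAHFD RIC 1 each the highest of their group for 14. A synthesis score, the mean over the 18 genes of log2(FPKM + 1) centred on each gene's mean over all samples, ran from 0.26 to 1.14 in NC sham, from 0.08 to 0.83 in NC RIC, from -0.63 to -0.48 in CDAHFD sham and from -0.70 to -0.39 in CDAHFD RIC. Its SD was 0.34, 0.28, 0.06 and 0.13 in these groups.

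The sensing genes differed widely in the size of their fall on CDAHFD. Insig1 (chr5:28071363-28078662), an endoplasmic reticulum anchor of Scap and itself a target of SREBP-2, measured 50.2, 50.4, 71.4, 55.2 and 34.7 FPKM in NC sham samples and 51.1, 56.1, 40.4, 51.0 and 25.8 in NC RIC samples. Levels on CDAHFD were 8.38, 6.64, 7.80, 10.7 and 8.15 for sham and 24.0, 11.3, 8.47 and 14.1 for RIC. The sham groups did not overlap, and the difference was -2.49 (SE 0.24, adjusted p = 2.4e-08, 6.29-fold lower). Insig2 (chr1:121304353-121332589), the second such anchor, measured 213, 334, 234, 152 and 273 FPKM in NC sham samples and 208, 105, 223, 257 and 240 in NC RIC samples. Under CDAHFD, sham samples read 48.8, 88.9, 45.8, 65.5 and 39.3 and RIC samples 57.5, 83.7, 106 and 76.3. It was the most abundant of the 31 transcripts in each NC group, the sham groups did not overlap, and the difference was -2.06 (SE 0.26, adjusted p = 8.3e-07, 4.18-fold lower).

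Srebf2 and Scap had smaller differences. Srebf2 FPKM was 3.06, 3.21, 4.61, 2.58 and 2.76 in NC sham samples and 3.09, 3.14, 2.29, 2.79 and 2.53 in NC RIC samples. The CDAHFD values were 2.25, 2.12, 2.81, 2.58 and 2.47 with sham and 2.86, 2.197, 2.09 and 2.84 with RIC. These sham groups overlapped, and the difference of -0.28 (SE 0.11, adjusted p = 0.0277) no longer passed without NC sham 3, CDAHFD sham 1 or CDAHFD sham 2 (adjusted p up to 0.102), nor without CDAHFD sham 2 and 5 together, with a common sum or with array weights (0.111 at most over the alternatives). Scap FPKM was 6.33, 5.55, 5.68, 6.12 and 5.23 in NC sham samples and 5.38, 4.18, 4.16, 3.93 and 4.78 in NC RIC samples. Sham samples on CDAHFD held 4.91, 5.09, 4.40, 4.74 and 4.80, and RIC samples held 5.83, 5.70, 5.46 and 5.97. Its sham groups lay next to each other without overlap, and the difference was -0.23 (SE 0.07, adjusted p = 0.0099). Rescaling to a common sum ended that call (adjusted p = 0.0570).

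The transport genes moved in both directions. Stard4, a soluble carrier that moves sterol between membranes, measured 10.3, 10.3, 12.5, 11.6 and 9.22 FPKM in NC sham samples and 11.6, 13.5, 6.90, 9.87 and 10.6 in NC RIC samples. Levels on CDAHFD were 2.26, 3.09, 1.14, 2.22 and 3.31 for sham and 8.07, 3.67, 2.58 and 2.36 for RIC. Its sham groups did not overlap, with a difference of -1.83 (SE 0.23, adjusted p = 1.0e-06, 4.49-fold lower). Npc2, the soluble partner of Npc1 in carrying cholesterol out of lysosomes, measured 5.56, 6.04, 6.84, 5.78 and 6.32 FPKM in NC sham samples and 5.51, 5.03, 6.67, 4.16 and 5.46 in NC RIC samples. Under CDAHFD, sham samples read 16.8, 20.4, 20.3, 19.8 and 19.9 and RIC samples 17.6, 25.4, 13.5 and 21.9. Every CDAHFD sample lay above every NC sample, with a sham difference of 1.52 (SE 0.13, adjusted p = 4.9e-09, 3.19-fold higher). Npc1 rose as deposited, from 7.33 ± 0.628 to 10.6 ± 1.19 FPKM (0.47, adjusted p = 0.0017), but stood at -0.05 under median-ratio and -0.01 under quantile scaling.

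Among the efflux genes, Abca1, which loads cholesterol and phospholipid onto apolipoprotein A-I, rose and Abcg8 fell. Abca1 FPKM was 11.7, 10.3, 9.72, 9.12 and 11.5 in NC sham and 14.5, 20.5, 14.4, 14.999 and 17.2 in CDAHFD sham. These groups did not overlap (difference 0.59, SE 0.16, adjusted p = 0.0034), but median-ratio and quantile scaling ended the call (adjusted p up to 0.835). Abcg8 measured 6.28, 8.37, 6.91, 6.86 and 6.10 FPKM in NC sham and 3.86, 4.87, 5.20, 4.0004 and 3.64 in CDAHFD sham. All 5 CDAHFD values were under the lowest NC value, and the difference of -0.57 (SE 0.18, adjusted p = 0.0078) kept its call in each of 30 alternatives. Abcg5, its partner in the transporter, measured 22.4, 27.0, 25.0, 24.2 and 25.5 FPKM in NC sham and 37.0, 34.2, 21.3, 33.6 and 27.8 in CDAHFD sham. Those groups overlapped, and the difference of 0.28 did not pass (SE 0.13, adjusted p = 0.0575).

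Of the esterification genes, Soat1 (chr1:156424525-156474331), the sterol acyltransferase of macrophages and many other cells, had the largest positive difference among the 31. Soat1 measured 0.343, 0.275, 0.244, 0.331 and 0.375 FPKM in NC sham samples and 0.278, 0.205, 0.166, 0.314 and 0.224 in NC RIC samples. The CDAHFD values were 2.93, 2.89, 3.65, 2.92 and 3.404 with sham and 2.58, 4.04, 2.06 and 3.38 with RIC. The diets were far apart, with a sham difference of 1.66 (SE 0.10, 10.1-fold higher). Since Soat1 passed the filter only through CDAHFD, its p is given with no filter on low values (adjusted p = 1.3e-09). Soat2, the acyltransferase of hepatocytes and enterocytes, measured 5.66, 5.12, 4.90, 5.53 and 5.50 FPKM in NC sham samples and 7.18, 7.82, 7.32, 5.71 and 6.18 in NC RIC samples. Sham samples on CDAHFD held 9.96, 7.23, 8.44, 8.13 and 8.26, and RIC samples held 16.7, 8.37, 7.09 and 12.7. Its sham groups did not overlap (0.56, SE 0.15, adjusted p = 0.0029), although median-ratio scaling and quantile normalization ended the call (adjusted p up to 0.773). Lcat, which hepatocytes secrete to esterify plasma cholesterol, stood at 90.6 ± 8.71 and 86.0 ± 9.18 FPKM and did not pass (-0.07, 95% interval -0.26 to 0.11).

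Markers of other cell types moved with the diet. The 14 macrophage markers all rose in the sham comparison, against 63.9% of all genes tested called higher. Gpnmb, Trem2 and Itgam were among those that passed the filter through CDAHFD, so that count is not independent of the filter. Their means were 0.00178, 0.0631 and 0.0425 FPKM in NC sham and 42.6, 6.38 and 2.27 in CDAHFD sham. The macrophage markers, found in 15 entries, had summed FPKM of 81.8 to 107 (NC sham), 60.4 to 119.5 (NC RIC), 1072 to 1327 (CDAHFD sham) and 846 to 1691 (CDAHFD RIC). Sums of 8 stellate cell markers were 3.997 to 8.13, 4.06 to 5.24, 54.2 to 139 and 23.3 to 63.7 in the same order, and those of 6 cholangiocyte markers were 16.5 to 35.1, 14.5 to 27.5, 144 to 482 and 101 to 383. Most of the cholangiocyte sums was Spp1, with means of 21.9 FPKM in NC sham and 267 in CDAHFD sham, and 3 of the 6 markers passed the filter. Hepatocyte marker sums were 44850 to 56102 and 59260 to 70180 on NC (sham and RIC), and 36467 to 40603 and 34744 to 47062 on CDAHFD. Most of these sums was Alb, with means of 34829 and 48982 FPKM on NC, whereas the 10 markers had a median difference of -0.18 in NC RIC minus NC sham. The part of these shifts in the rise of Soat1, Npc2 and Abca1 and in the fall of the synthesis genes was not tested.

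**Figure D2:**
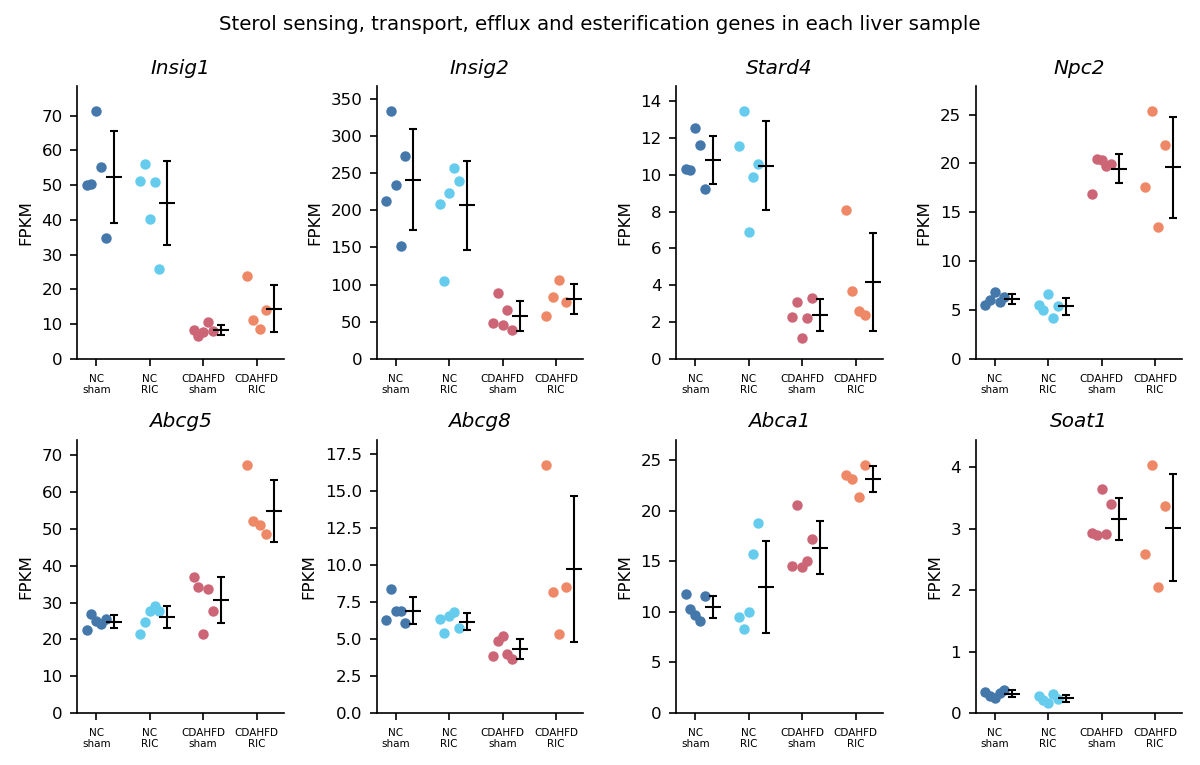
FPKM (linear axis from 0) of 8 genes of sterol sensing, transport, efflux and esterification in each of the 19 samples; points are samples, and the bar beside them is the mean ± SD. Insig1, Insig2 and Stard4 were lower in CDAHFD sham than in NC sham, Npc2 and Soat1 were higher on CDAHFD, and Abcg5 was highest in CDAHFD RIC, at 48.7 to 67.4 FPKM.

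The same diet comparison was made between the conditioned groups, which share no sample with the sham groups but share the estimate of spread. In CDAHFD RIC minus NC RIC, 9 of the 31 genes were higher, against 63.6% of all genes tested, and 13 were lower, against 6.68%. Values did not overlap for 17 of the 31, against 58% of all genes tested. The counts include Soat1, which entered the test through its level on CDAHFD (means 0.237 FPKM in NC RIC and 3.01 in CDAHFD RIC). They also include Sqle and Tm7sf2, which averaged under 1 FPKM in CDAHFD RIC (0.537 and 0.908), against 3.53 and 9.41 in NC RIC. The falls of Sqle and Tm7sf2 kept their calls in each alternative run, no filter included (limma's adjusted p at most 3.4e-05, for Sqle). The lower genes were 10 of the 18 synthesis genes (Hmgcs1, Pmvk, Idi1, Fdps, Sqle, Cyp51, Tm7sf2, Msmo1, Nsdhl and Ebp), Insig1, Insig2 and Stard4. Each of these 13 also fell between the sham groups. Tm7sf2 differed by -2.46 and Cyp51 by -2.61, beside -2.50 and -2.72 in sham, and Idi1 by -2.90, beside -3.55. Higher genes were Acat2 (0.47), Scap (0.30), Npc1 (0.76), Npc2 (1.67), Abcg5 (1.04), Abcg8 (0.48), Abca1 (0.90), Soat1 (1.67) and Soat2 (0.58). The counts became 3 higher and 20 lower with median-ratio scaling and 4 and 22 with quantile normalization, while those of all genes went from 6728 and 707 to 2673 and 2597, and to 2547 and 2854. Direction turned for Acat2 (-0.051) and Abcg8 (-0.019) with median-ratio scaling and for Scap with both (-0.17 and -0.20), and Scap was called lower with quantile normalization (adjusted p = 0.0338). The Abcg8 difference no longer passed without CDAHFD RIC 1, NC RIC 2 or NC RIC 5 (adjusted p up to 0.193), nor did that of Acat2 without CDAHFD RIC 1 or 2 (up to 0.0638). Both also lost their calls with median-ratio scaling and quantile normalization. For Abcg8 the call was lost as well with no filter, only the groups compared and the replicate block. Over all alternatives limma's adjusted p was up to 0.99 for Abcg8 and 0.805 for Acat2. The synthesis median was -0.59, beside 0.42 over all genes tested.

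**Figure D3:**
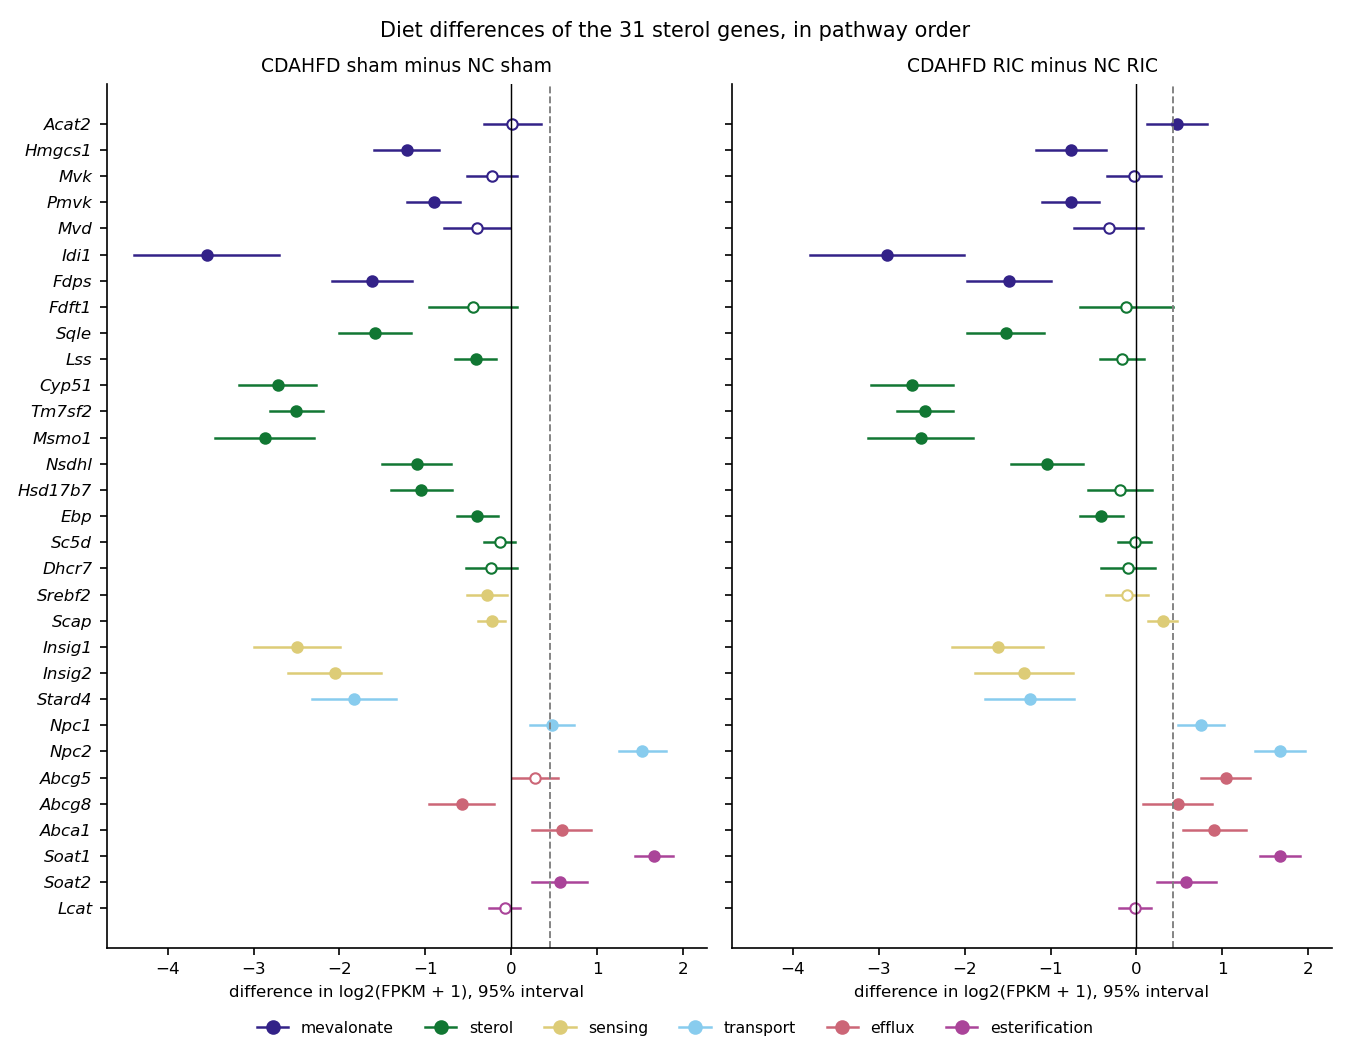
Differences in log2(FPKM + 1) with 95% intervals for the 31 genes in pathway order, between the sham groups (left) and between the RIC groups (right); filled points passed limma's test, and the dashed line is the median of all genes tested. Except for Acat2 between the RIC groups (0.47), synthesis and Insig genes lie left of the dashed lines of 0.45 and 0.42, with Idi1 lowest at -3.55 and -2.90, and Npc2 and Soat1 lie to the right.

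Conditioning on CDAHFD was compared next. The 3 efflux genes were higher in CDAHFD RIC than in CDAHFD sham, Abcg5 and Abcg8 by 1.78-fold and 2.25-fold. Of the 18 synthesis genes 1 passed as deposited, Ebp, which was lower. Their median difference was -0.02, beside -0.08 over all genes tested. Of the 31 genes 4 were higher (Abcg5, Abcg8, Abca1 and Scap), against 8.72% of all genes tested, and 1 was lower, against 18.6%. Values of 5 genes did not overlap, against 18.4% of all genes tested. With a common sum or quantile normalization 7 were higher and none lower, and with median-ratio scaling 6 were higher and none lower. With a pseudocount of 0.1 or no filter 2 were higher, Abcg5 and Abcg8, and single-sample omissions gave 2 to 5. Over all genes, 922 were higher and 1964 lower as deposited, 1210 and 971 with a common sum, 1341 and 1063 with median-ratio scaling, and 1481 and 1449 with quantile normalization. Among markers of other cells, 4 of 7 tested stellate cell markers fell, 3 of 14 macrophage markers rose and 1 fell, and of 10 hepatocyte markers 1 rose and 3 fell. Their part in the efflux differences was not tested. This comparison shares the CDAHFD sham samples with the first one.

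Abcg5 measured 67.4, 52.2, 51.2 and 48.7 FPKM in CDAHFD RIC, all above the 21.3 to 37.0 of CDAHFD sham given above. The means were 54.9 ± 8.48 (n = 4) and 30.8 ± 6.26 (n = 5), and the difference was 0.83 (SE 0.14, adjusted p = 4.4e-04). Abcg8 measured 16.8, 8.20, 5.34 and 8.52 FPKM in CDAHFD RIC, which were also all above the 3.64 to 5.20 of CDAHFD sham. Its means were 9.70 ± 4.91 and 4.31 ± 0.678, and the difference was 0.92 (SE 0.19, adjusted p = 0.0025). Sample 1 of CDAHFD RIC, the deepest library, was highest for both. Without it the differences were 0.73 for Abcg5 (adjusted p = 0.0020) and 0.64 for Abcg8 (adjusted p = 0.0039), and both calls held in all 30 alternatives run.

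Abca1 measured 23.5, 23.1, 21.4 and 24.5 FPKM in CDAHFD RIC, above every CDAHFD sham sample, but its difference of 0.49 (SE 0.17, adjusted p = 0.0443) lost its call whenever 1 of 11 particular samples was dropped (highest adjusted p 0.0954). The Abca1 call was also lost with a pseudocount of 0.1 and with no filter. Scap was higher by 0.22 (SE 0.08, adjusted p = 0.0451), with all 4 CDAHFD RIC samples above the 5 CDAHFD sham samples, and lost its call for 13 of the 19 single-sample omissions (highest adjusted p 0.107). The Scap call was lost in 19 of 30 alternatives in all. These included the fit without CDAHFD sham 2 and 5, a pseudocount of 0.1, no filter, a minimum mean of 5 FPKM, only the groups compared and the replicate block. Ebp measured 36.4, 34.4, 43.7, 29.6 and 33.6 FPKM in NC sham samples and 26.5, 24.9, 27.7, 27.9 and 27.3 in NC RIC samples. Levels on CDAHFD were 32.97, 20.9, 27.02, 27.8 and 25.3 for sham and 23.2, 16.5, 20.1 and 20.6 for RIC. The CDAHFD groups overlapped, and the Ebp difference of -0.39 (SE 0.12, adjusted p = 0.0231) was lost without CDAHFD sham 1 or CDAHFD RIC 2 (adjusted p up to 0.0857) and under each of the 3 scalings (common sum, median-ratio and quantile).

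Neither the Insig genes nor Stard4, which had fallen on CDAHFD, passed with RIC as deposited. Insig1 differed by 0.65 (SE 0.25, adjusted p = 0.0629), Insig2 by 0.51 (SE 0.27, adjusted p = 0.174) and Stard4 by 0.52 (SE 0.25, adjusted p = 0.122). Insig1 and Stard4 were highest in CDAHFD RIC 1, at 24.0 and 8.07 FPKM, and without that sample the differences were 0.39 and 0.21. Leaving out CDAHFD sham 2 and 5 gave 0.55 for Insig1 (adjusted p = 0.169) and 0.75 for Stard4, which then passed (adjusted p = 0.0464). The synthesis genes Hsd17b7 (0.45, adjusted p = 0.0689) and Acat2 (0.42, adjusted p = 0.0696) did not pass as deposited either. Both were called higher with a common sum, median-ratio scaling and quantile normalization (limma's adjusted p up to 0.0481 for Hsd17b7 and 0.041 for Acat2). Hsd17b7 was also called higher with array weights (0.0346) and without CDAHFD sham 2 and 5 (0.0059). Insig1 was called higher with a common sum (0.0339) and with quantile normalization (0.034). Of the 18 synthesis genes 14 were highest in CDAHFD RIC 1 among the samples of its group. The remaining transport and esterification genes did not pass, with Npc1 at 0.00, Npc2 at -0.02, Soat1 at -0.07, Soat2 at 0.31 and Lcat at 0.01.

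On NC, 1 of the 31 genes passed between RIC and sham as deposited, Scap, and its call was lost in 26 of 30 alternatives. Scap was lower by 0.31 on the log2 scale in NC RIC (difference -0.31, SE 0.07, adjusted p = 0.0496), while the NC groups overlapped and the call held for 1 of the 19 single-sample omissions (highest adjusted p 0.137). None was higher, against 0.321% of all genes tested, and 1 was lower, against 0.86%. The values of 2 of the 31 did not overlap, against 4.75%. In this comparison limma called 125 genes of all those tested, and 1747 had an unadjusted p under 0.05. The split of all genes was 34 higher and 91 lower, 16 and 92 with a common sum, 79 and 48 with median-ratio scaling, and 38 and 21 with quantile normalization. All 18 synthesis differences were below 0, from -0.54 (Hmgcs1, adjusted p = 0.148) to -0.01 (Sc5d), and none passed. The median over all genes tested was itself below 0, at -0.06, and 14 of the 18 lay below it. Ebp, at 24.9 to 27.9 FPKM in NC RIC and 29.6 to 43.7 in NC sham, did not overlap and did not pass (-0.38, adjusted p = 0.111). Abcg5 differed by 0.06 (95% interval -0.20 to 0.33) and Abcg8 by -0.14 (-0.52 to 0.24). NC RIC samples measured 21.5, 24.8, 27.6, 29.0 and 27.7 FPKM for Abcg5. They measured 6.35, 5.40, 6.58, 6.82 and 5.71 for Abcg8, and 9.51, 8.25, 10.005, 15.7 and 18.8 for Abca1.

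**Figure D4:**
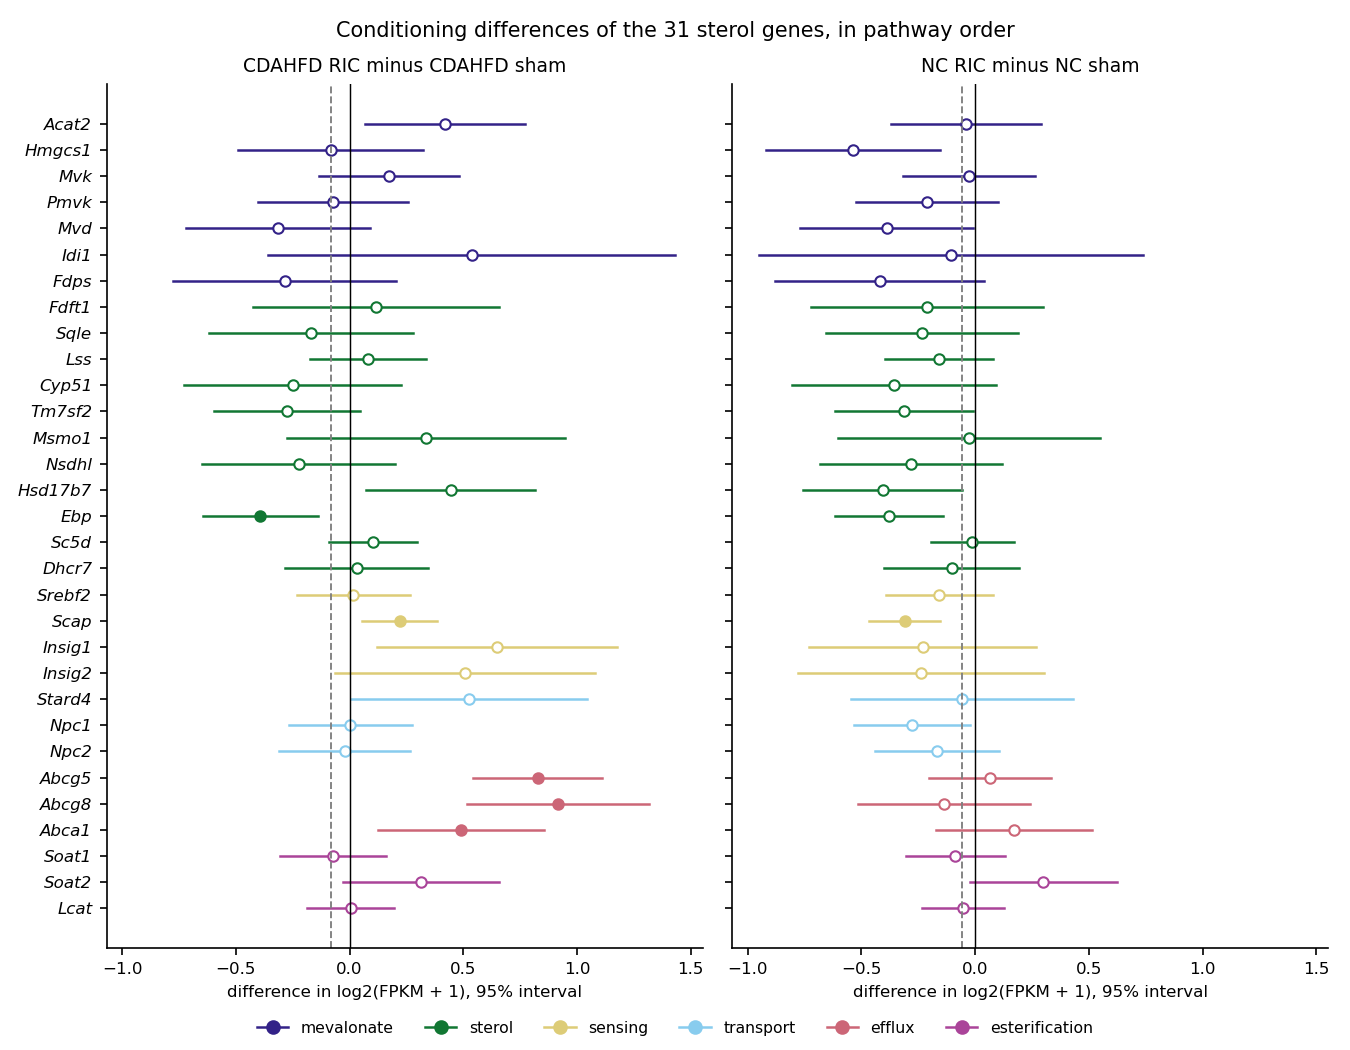
Differences in log2(FPKM + 1) with 95% intervals for the 31 genes, RIC minus sham on CDAHFD (left) and on NC (right); filled points passed limma's test, and the dashed line is the median of all genes tested. On CDAHFD the efflux genes Abcg5, Abcg8 and Abca1 lie at 0.83, 0.92 and 0.49, and on NC they lie at 0.06, -0.14 and 0.17.

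Whether conditioning differed by diet was tested as an interaction, the RIC difference on CDAHFD minus that on NC. It was above 0 and passed for 4 of the 31 genes, against 3.59% of all genes tested, and below 0 for none, against 3.13%. All genes split 380 above and 331 below as deposited, and 667 and 155 with a common sum. Abcg8 had an interaction of 1.05 (SE 0.26, adjusted p = 0.0225, or 0.0608 with no filter), Abcg5 of 0.76 (SE 0.19, adjusted p = 0.0203), Scap of 0.53 (SE 0.11, adjusted p = 0.0079) and Hsd17b7 of 0.85 (SE 0.24, adjusted p = 0.0425). Hsd17b7, a reductase in removal of the sterol methyl groups, measured 14.7, 20.3, 19.96, 18.4 and 17.4 FPKM in NC sham samples and 14.9, 13.5, 9.72, 15.05 and 14.4 in NC RIC samples. Under CDAHFD, sham samples read 7.44, 13.4, 7.29, 6.07 and 8.40 and RIC samples 8.88, 13.7, 14.0 and 10.4. RIC samples were mostly lower on NC and higher on CDAHFD, with overlap on both, and the interaction was lost in 15 of 29 alternatives (adjusted p up to 0.10). Abca1 had an interaction of 0.32 that did not pass (adjusted p = 0.457).

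Synthesis was then set against the other genes. The mean centred level of the 18 synthesis genes was 0.62 ± 0.34 and 0.39 ± 0.28 on NC (sham and RIC), and -0.56 ± 0.06 and -0.56 ± 0.13 on CDAHFD. That of the 9 transport, efflux and esterification genes was -0.20 ± 0.03, -0.23 ± 0.04, 0.09 ± 0.05 and 0.42 ± 0.24 as deposited. Scaling turned the sham direction of this second score, which was 0.0020 on NC and -0.21 on CDAHFD with median-ratio scaling, and -0.031 and -0.18 with quantile normalization. The first minus the second was 0.82, 0.61, -0.65 and -0.98. On CDAHFD the RIC and sham means of synthesis lay within 1 SD of each other, and 3 of 4 RIC samples lay above every sham sample for the other 9 genes. The 3 roles among these 9 genes differed. Esterification, which includes Soat1, stood at -0.37 in NC sham, 0.35 in CDAHFD sham and 0.43 in CDAHFD RIC. Efflux stood at -0.21, -0.11 and 0.63 in the same order, and transport at -0.02, 0.04 and 0.21. Soat1 entered the test through its level on CDAHFD. Since the members were chosen with results known, these scores are a description and carry no test.

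**Figure D5:**
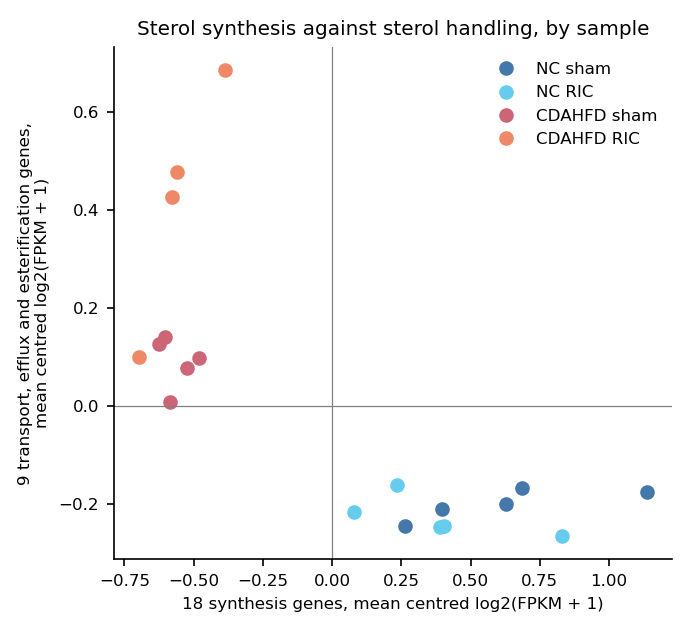
Each point is 1 of 19 samples: the mean centred log2(FPKM + 1) of the 18 synthesis genes (x) against that of the 9 transport, efflux and esterification genes (y), as deposited. The 9 genes include Soat1, which passed the filter through its level on CDAHFD. NC samples lie at 0.08 or above on x and below 0 on y, CDAHFD samples below 0 on x and above 0 on y, with 3 of 4 CDAHFD RIC samples above all CDAHFD sham samples on y; between the sham groups the order of the means on y turned under median-ratio and quantile scaling.

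Other genes of sterol metabolism were read from a list of 35, of which 32 were tested. On CDAHFD in the sham groups 22 rose, against 63.9% of all genes tested, 3 fell, against 10.3%, and 7 did not pass, so both counts were near the background. The median was 0.60 beside 0.45 over all genes. Those with the smallest p among the risen genes were Abcg1, a sterol exporter abundant in macrophages, from 0.326 ± 0.0658 to 4.70 ± 0.449 FPKM (2.10; it passed the filter through CDAHFD, so no p is given), Ubxn8 (0.83), which takes part in protein removal from the endoplasmic reticulum, and Coq2 (0.73), which prenylates the ubiquinone ring. The 3 that fell were Cyp7b1 (-3.85, adjusted p = 2.0e-09) and Cyp27a1 (-1.06), hydroxylases of the bile acid and oxysterol pathways, and the carboxylesterase gene Ces1d (-1.63). With RIC on CDAHFD 5 rose, against 8.72% of all genes tested, and 3 fell, against 18.6%. Those named were chosen after their values were seen: Srebf1 (0.67), the lipoprotein receptor gene Scarb1 (0.50), the lysosomal lipase gene Lipa (0.40) and Cyp39a1 (0.71) rose, and Erlin2 (-0.30), Nr1h3 (-0.31) and Gramd1a (-0.47) fell. With RIC on NC 1 rose, Cyp39a1 (0.85, adjusted p = 0.0455).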

How the data were processed

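Liver RNA-seq of 19 mouse samples was grouped by sample title. The authors deposited FPKM values in a single file with a column for each sample, and these were used unchanged. Per the submitters' processing notes, which state no role or order, the tools were R 3.4.1, HTSeq 0.13.5, HISAT2 2.2.1, DESeq2 1.18.1, FastQC 0.11.9 and Trimmomatic 0.38, and the assembly was mm10. The program behind the FPKM, its annotation, strand, batches and harvest times are not given in the sources used here. Entries without a name (3225 of 55335, 0.123% to 0.204% of the FPKM) were left out.

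Because FPKM are not counts, log2(FPKM + 1) was computed from the deposited FPKM and fitted with limma 3.58.1 in R 4.3.3 (two-sided, with trend and group means over every sample, 15 residual degrees of freedom, Benjamini-Hochberg adjustment over 10577 genes with a mean of at least 1). Folds are ratios of mean FPKM, and ± is the SD. All 31 genes passed the filter, so no separate permutation test was needed. Tables and plots used the R package data.table (version 1.17.8), python 3.11.15, pandas 2.3.3, numpy 2.4.6 and matplotlib 3.10.9. The fits were tested on simulated data. Depth was estimated from low FPKM as multiples of 1 read. Between 25.9% and 29.9% of low values were whole within 2%, so reads were not recovered and no count test was run. No pair of samples shared more than 0.00945% of values. Promoter windows came from RefSeq and gene positions from GENCODE.

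The members, lists and the rule for naming were chosen with earlier results of these data known. All 31 are named. Values in every sample are given for the 2 members of each role with the smallest p in the sham diet comparison, all sensing members, and each member called in a conditioning comparison or the interaction; Abcg5 and Ebp were included by the latter. Of the other list, counts and, for the sham diet comparison, the 3 smallest p in each direction are given; some values are not reported here. Alternatives covered the pseudocount, filter, scaling, samples fitted, trend, weights, replicate block, 2 samples and each sample left out.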

Additional observations from a re-analysis of the deposited data

Results flagged for a closer look

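In 7 of 124 gene and group combinations, 1 sample lay far from the others of its group by Dixon's ratio at 95%; chance gives about 1 in 20. NC RIC 1 had 52.4 FPKM of Idi1 against 10.01 to 17.2 in the other 4, and 31.1 of Hmgcs1 against 18.01 to 21.8. NC RIC 3 was low in Hsd17b7, at 9.72 against 13.5 to 15.05. NC sham 3 had 17.7 of Tm7sf2 against 9.59 to 11.5. CDAHFD sham 1 had 16.8 of Npc2 against 19.8 to 20.4. CDAHFD RIC 1 had 42.2 of Sc5d against 34.2 to 35.3, and CDAHFD RIC 3 had 4.78 of Fdft1 against 9.60 to 10.1.

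The difference between RIC and sham itself differed between the diets, by limma's interaction test, for 4 genes. The values, on the log2(FPKM + 1) scale and signed as CDAHFD minus NC, were 1.05 for Abcg8, 0.85 for Hsd17b7, 0.76 for Abcg5 and 0.53 for Scap.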

How the results depend on the processing

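Over 55 calls and 1636 alternative values, 1522 kept direction and side of the threshold, 108 kept direction without passing and 6 reversed. The reversed values were those of Npc1 between the sham groups (-0.053 with median-ratio scaling, -0.006 with quantile normalization) and, in CDAHFD RIC minus NC RIC, those of Acat2 (-0.051) and Abcg8 (-0.019) with median-ratio scaling and of Scap with both (-0.169 and -0.196). The cause was not tested. Between the sham groups, 5 genes called higher became 2 with median-ratio and with quantile scaling. For RIC on CDAHFD, 4 higher became 2 with a pseudocount of 0.1 or no filter and 7 with a common sum or quantile normalization. There, 1 lower became 0 under all 3 scalings and when only the groups compared were fitted. For RIC on NC, 1 lower became 0 with no filter, all 3 scalings, only the groups compared, no trend, the replicate block, or without CDAHFD sham 2 and 5, and became 2 with array weights. For CDAHFD RIC minus NC RIC, 9 higher became 3 and 4, and 13 lower became 20 and 22, with median-ratio scaling and quantile normalization. For the interaction, 4 higher became 2 with no filter. The synthesis score minus that of the other 9 genes differed by -1.48 between the sham groups and by -1.90 with a pseudocount of 0.1.

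Leaving out each sample in turn gave 5 to 6 higher and 17 to 20 lower between the sham groups, 2 to 5 and 0 to 1 for RIC on CDAHFD, 0 and 0 to 1 for RIC on NC, 7 to 9 and 13 to 14 for CDAHFD RIC minus NC RIC, and 3 to 4 higher for the interaction. Deviations of same-numbered samples from their group means correlated over 0.1 in 6 of 27 pairs (range -0.17 to 0.18). Low correlation cannot exclude a shared batch, so whether the numbers pair samples is not known. With the replicate block the counts of higher and lower genes were 5 and 19 between the sham groups, 3 and 1 for RIC on CDAHFD, 0 and 0 for RIC on NC, 8 and 13 for CDAHFD RIC minus NC RIC, and 4 and 0 for the interaction. A minimum mean of 5 FPKM left fewer of the genes tested, and fitting only the groups compared could not be applied to the interaction. Depth limits Idi1, Mvk, Mvd, Sqle and Soat1, whose lowest samples held an estimated 1, 32, 30, 40 and 33 reads.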

Other observations

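Ratios of FPKM within a sample, which are per length, are given for paired genes without a test. Abcg5 over Abcg8 was 3.63 ± 0.347 and 4.25 ± 0.554 on NC (sham and RIC), and 7.35 ± 2.05 and 6.42 ± 2.33 on CDAHFD, although both encode subunits of 1 transporter. Soat2 over Soat1, the hepatocyte and the widely expressed sterol acyltransferase, was 17.3 ± 2.08, 30.8 ± 10.3, 2.69 ± 0.437 and 3.94 ± 1.84 in the same order. Insig2 over Insig1 was 4.95 ± 2.2, 5.16 ± 2.70, 7.21 ± 3.49 and 6.92 ± 4.24. The Insig ratio ranges of all 4 groups overlapped, and those of Abcg5 over Abcg8 overlapped between the diets (3.22 to 4.18 in NC sham and 4.11 to 9.58 in CDAHFD sham), whereas those of Soat2 over Soat1 did not overlap between NC and CDAHFD.

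In the list of other sterol genes, the interaction passed and was above 0 for 4 of the 32 tested, against 3.59% of all genes tested. They included Scarb1 (0.58, adjusted p = 0.0334), Lipa (0.77, adjusted p = 0.0126) and Nceh1 (0.78, adjusted p = 0.0371), chosen after their values were seen. Lipa and Nceh1 encode hydrolases of cholesteryl esters. Lipa stood at 17.5 ± 2.23 and 13.4 ± 1.83 FPKM on NC (sham and RIC), and at 33.7 ± 4.63 and 45.0 ± 6.81 on CDAHFD.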
